A study of Rattus norvegicus with 24 samples.

Results

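The gene expression response of RBEC4 cells to small silver particles coated with polyvinylpyrrolidone (PVP) was measured by comparing 5 arrays of exposed cells with 4 arrays of unexposed control cells, 9 of the 24 arrays of the study. RBEC4 is a rat line labelled as blood-brain barrier cells and used as a model of brain microvascular endothelium. The exposed cells, written PVP10, received PVP-coated nanosilver of a nominal 10 nm at 1 ppm for 18 h, and the control cells received no particle. All groups were RBEC4 cells at 95% confluence, and the other 15 arrays held PVP-coated particles of 75 nm and citrate-coated particles of 10 and 75 nm at the same dose. RBEC4 is a single cell line, and the labels number the arrays without saying whether they came from separate cultures, so the p-values rest on the spread among these arrays alone, and that spread may be technical.

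Silver particles in culture medium are taken up by endocytosis and release silver ions, which bind the sulphur of cysteine in proteins and in glutathione. Damaged proteins are marked with ubiquitin, pulled from complexes by the ATPase VCP and its adaptors, and degraded by the proteasome, while endosomes and autophagosomes deliver cargo to lysosomes. Cells under such stress commonly slow their division cycle.

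Each level is a normalized log2 bead intensity, and no level is set against that of another probe. A probe was detected on an array when its detection p-value was under 0.01, and 2774 of 22523 probes were kept because they were detected on at least 4 of the 24 arrays. With 1 probe taken per gene, these gave 2748 tested entries, of which 1942 had a gene name. Between 2188 and 2542 probes were detected per PVP10 array and between 2269 and 2461 per control array. Across the kept probes the correlation was between 0.994 and 0.996 within control, between 0.991 and 0.996 within PVP10 and between 0.971 and 0.980 across the groups, so every pair of arrays from different groups was less alike than any pair from the same group. The first principal component of the 9 arrays held 69.3% of the variance, with control arrays between -13.9 and -11.7 and PVP10 arrays between 8.59 and 11.5. In bulk samples, a lower signal from fewer cells of a kind and less RNA per cell cannot be told apart.

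The labelled cell type was checked against marker lists. Of 13 endothelial markers on the array, 11 were detected on none of the 9 arrays, among them Cdh5, Vwf, Tek, Flt1, Cldn5 and Ocln. The junction scaffold gene Tjp1 was detected on all 9 arrays and Tie1 on 1 control and 2 PVP10 arrays. Over the whole array, 19302 of 22523 probes were detected on none of the 9 arrays. Undetected markers of any cell type therefore say little about identity, and few markers were measured that could bear out the label. None of the markers of pericytes and smooth muscle (4 on the array), microglia (4), oligodendrocytes (4), fibroblasts (5) or choroid epithelium (4) was detected on any of the 9 arrays. Of 6 astrocyte markers only Slc1a2 was detected. Of 9 neuron markers 6 were detected on none of the 9 arrays, Nefm rose by 0.25 (adjusted p = 0.047) and Gad2, called lower (adjusted p = 0.00717), was detected on 2 control arrays and no PVP10 array, so no fold is given. The summed linear level of the kept neuron markers was 91.6 to 106 in control and 85.4 to 109 in PVP10, and that of the endothelial markers was 992 to 1181 in control and 762 to 1045 in PVP10.

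Most of the response consisted of many changes of moderate size in both directions. A linear model with group and BeadChip terms (limma, Benjamini-Hochberg adjustment over all kept probes) called 1148 of 2748 entries at an adjusted p under 0.05, which is 41.8% of those tested. Of these, 553 were higher in PVP10 (20.1% of those tested) and 595 were lower (21.7%). The median absolute log2 fold change of the called entries was 0.49, and it was the same to 2 decimals in each direction. A change of over 1.5-fold was reached by 418 called entries (198 higher, 220 lower), over 2-fold by 95 and over 4-fold by 5. Over all entries the median log2 fold change was -0.01, and the central 50% lay between -0.22 and 0.19. The size of these folds rests on the background correction. Without it, all 1148 kept their sign, the median ratio of the log2 fold changes to those given here was 0.66, and 187 called entries passed 1.5-fold. The balance of directions rests on the scaling between arrays, since equal array medians in place of quantile normalization gave 681 entries higher and 440 lower, a share of 60.8% higher against 48.2%.

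The largest changes set the scale. Slc1a2, the gene of the main astrocyte glutamate transporter, read 5.36, 5.25, 5.44 and 5.41 on the control arrays and 9.43, 9.61, 9.80, 10.19 and 8.77 on the PVP10 arrays, a log2 fold change of 4.19 (SE 0.183, adjusted p = 1.04e-16). Fam83d, a mitotic spindle protein gene, read 8.73, 8.65, 8.96 and 8.91 on the control arrays and 6.67, 6.71, 6.61, 6.76 and 6.65 on the PVP10 arrays, a log2 fold change of -2.15 (SE 0.102, adjusted p = 5.62e-16). Neither gene had overlapping groups. The other large movers among named genes detected on all 9 arrays were Sqstm1 (log2 fold change 3.03), the gene of the autophagy receptor p62, and Nfix (-2.33), a transcription factor gene. The summed linear level of the kept astrocyte markers, which is Slc1a2 alone, was 38.03 to 43.5 in control and 436 to 1170 in PVP10, while the other 5 astrocyte markers on the array were detected on none of the 9 arrays.

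**Figure D1:**
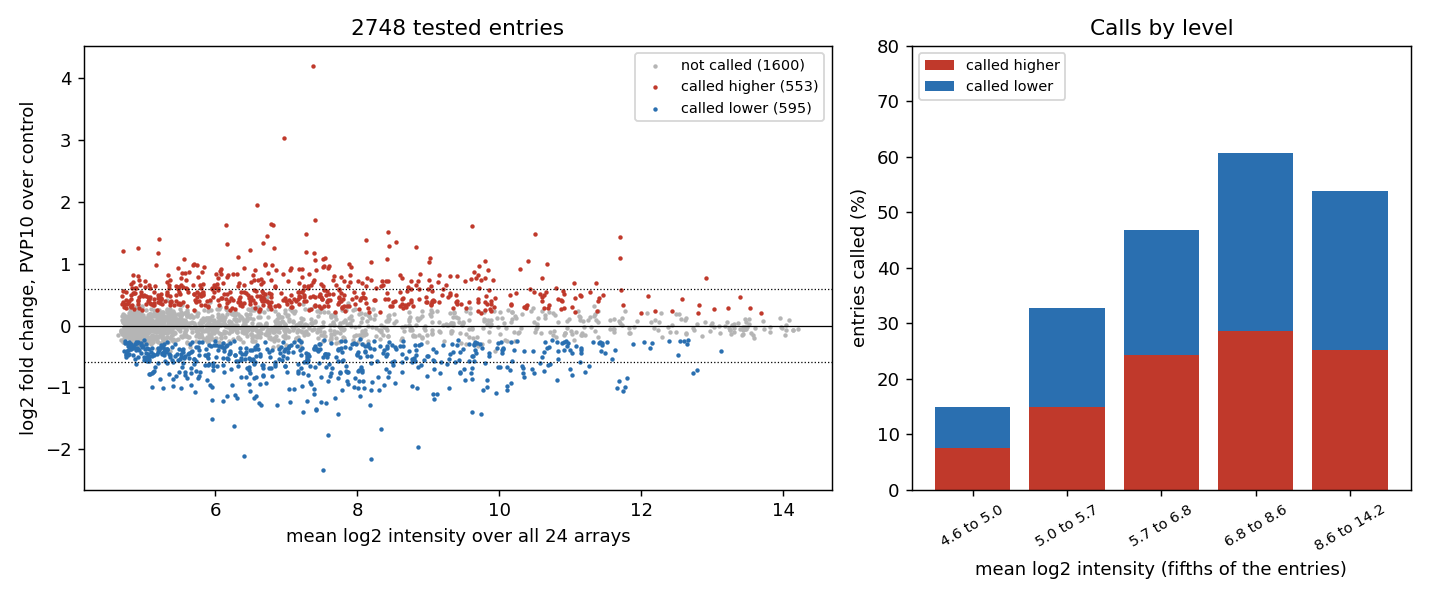
Left, each point is 1 of the 2748 tested entries, with the mean log2 intensity over all 24 arrays on the x axis and the log2 fold change of PVP10 over control on the y axis; dotted lines mark 1.5-fold. Right, bars give the percentage of entries called higher and lower in each of 5 equal bins of the entries by mean level, from 14.9% in the dimmest bin to 60.7% in the next to brightest.

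Calls depended on signal. In 5 equal bins by mean level, the share of entries called was 14.9% in the dimmest bin, 32.8% and 46.7% in the following bins, 60.7% in the next to brightest and 53.8% in the brightest, where normalized levels lay between 8.65 and 14.2. The median absolute log2 fold change was higher from bin to bin, from 0.096 to 0.35 and was 0.27 in the brightest, while the median standard error lay between 0.097 and 0.12 in all of them. Among the 1896 entries detected on all 9 arrays, 942 were called (49.7%), 476 higher and 466 lower. Arrays of the groups did not overlap for 901 of the 1148 called entries, and for 959 of all entries (34.9%). Of the entries not called, 1561 had a 95% interval within 1.5-fold either way, 325 of them within 1.2-fold, and for 39 the interval reached beyond 1.5-fold. An interval within 1.5-fold does not show that an entry was unchanged, since 259 called entries had one too. Changes of dim entries were also small, as the bins show, so their intervals are no measure of stability.

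The 4 named genes with the narrowest intervals around no change were Rpl27 and Rpl23a, which encode ribosomal proteins, Eef1a1, an elongation factor gene, and Cdc42, a small GTPase gene. Rpl27 read 13.99, 13.95, 13.99 and 13.99 on the control arrays and 13.92, 14.08, 13.88, 13.92 and 14.05 on the PVP10 arrays, a log2 fold change of -0.02 (SE 0.0761, adjusted p = 0.879). Eef1a1 read 14.26, 14.26, 14.26 and 14.11 on the control arrays and 14.26, 14.14, 14.26, 14.20 and 14.03 on the PVP10 arrays, a log2 fold change of -0.05 (SE 0.0788, adjusted p = 0.689). The groups overlapped for both. These are among the brightest probes, where quantile normalization gives the same value to probes of the same rank, so equal values repeat and these values are no measure of stability. Eef1a1 was at -0.01 with equal array medians, where 3 of the 4 genes changed sign. Rpl27 was at 0.12 there, and Rpl23a was at -0.07 here and 0.03 there. Cdc42 was at -0.10 (SE 0.0745, adjusted p = 0.315) here and was called higher there, at 0.25 (adjusted p = 0.0342).

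The measured part of the machinery that carries ubiquitin-marked proteins to the proteasome moved in 1 direction. The list of ubiquitin genes and shuttle factors had 23 genes on the array, of which 7 were kept, all for shuttle and extraction factors. All 7 rose, against 20.1% over all entries, with a median log2 fold change of 0.87 against -0.01. Zfand5, which encodes a ubiquitin-binding activator of the proteasome, read 9.11, 8.96, 8.93 and 9.22 on the control arrays and 10.71, 10.38, 10.58, 10.76 and 10.85 on the PVP10 arrays, a log2 fold change of 1.602 (SE 0.123, adjusted p = 1.78e-11). Nploc4, the gene of a VCP cofactor, read 6.95, 7.20, 7.37 and 7.16 on the control arrays and 8.21, 8.58, 8.12, 7.81 and 8.24 on the PVP10 arrays, a log2 fold change of 0.96 (SE 0.127, adjusted p = 4.44e-07). Neither showed overlap between the groups. Ubxn7, which encodes a further VCP adaptor, read 5.54, 5.58, 5.54 and 5.51 on the control arrays and 6.29, 6.52, 6.25, 6.30 and 6.73 on the PVP10 arrays, a log2 fold change of 0.87 (SE 0.11, adjusted p = 1.88e-07). Ufd1, the partner of Nploc4, rose by 1.18 and was detected on 2 of 4 control and all PVP10 arrays. The other members, named after their values were seen, were Nsfl1c (0.84), Ubqln2 (0.83) and Vcp itself (0.42). The median was 0.43 without background correction, with 7 of 7 still called.

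Proteasome subunits rose beside them, 14 of 19 called higher (73.7%, against 20.1% over all entries) and 0 lower, with a median of 0.50. Psmb2, a subunit of the catalytic core, read 7.17, 7.21, 7.01 and 7.24 on the control arrays and 8.33, 8.20, 8.44, 8.16 and 8.001 on the PVP10 arrays, a log2 fold change of 1.09 (SE 0.0965, adjusted p = 3.44e-10). Psma1, from the outer ring of the core, read 5.12, 5.62, 5.45 and 5.31 on the control arrays and 6.37, 6.25, 6.55, 6.19 and 6.43 on the PVP10 arrays, a log2 fold change of 0.99 (SE 0.133, adjusted p = 5.83e-07). In both genes every PVP10 array lay above every control array. Psmd12, of the regulatory particle, read 10.42, 10.40, 10.46 and 10.29 on the control arrays and 11.23, 11.09, 11.13, 11.08 and 11.21 on the PVP10 arrays, a log2 fold change of 0.77 (SE 0.0799, adjusted p = 5.98e-09). Psmd4, whose product is a ubiquitin receptor of that particle, rose by 0.72 (SE 0.109). The 5 subunits not called ran from -0.19 (Psmb10, the inducible immune subunit) to 0.20 (Psmb1), both named after their values were seen, and 3 of them were detected on under 4 of the 9 arrays.

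Among 11 deubiquitinase genes, 2 rose (18.2%, near the 20.1% over all entries) and 0 fell (against 21.7%). These were Uchl5 (0.66, SE 0.107) and Usp14 (0.44, SE 0.107), and the products of both work on the proteasome. The enzymes that attach ubiquitin moved both ways, as did all entries. Of 13 activating and conjugating enzyme genes 4 rose (30.8%) and 2 fell (15.4%), with Ube2g1 at 0.92 (SE 0.124) and Ube2e3 at -1.10 (SE 0.105). Of 50 ubiquitin ligase and scaffold genes 8 rose and 12 fell (8 and 8 with equal array medians), with a median of -0.07. Herc4 rose by 0.90 (SE 0.102) and Traf6 by 0.73 (SE 0.102), whereas Fbxl6 was at -0.99 (SE 0.111) and Trim28, which also acts as a chromatin corepressor, at -1.05 (SE 0.114). Crbn, the substrate receptor gene of a cullin ligase, read 7.69, 7.53, 7.64 and 7.80 on the control arrays and 8.57, 8.51, 8.51, 8.68 and 8.82 on the PVP10 arrays, a log2 fold change of 0.95 (SE 0.0947, adjusted p = 2.41e-09).

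Promoter sequences are shown for called genes of this group that hold the letters searched for, so they are not a typical sample of it. RefSeq promoters (GRCr8 build, 250 bases before to 50 after the gene start) matched 1679 of the 1942 named genes by symbol. The letters TGACNNNGC on either strand, the core of the antioxidant response element, occurred in 12.2% of all 27457 promoters and in 14.8% of those of tested genes. They occurred in 18.1% of 349 genes called higher, 11.1% of 388 called lower and 15.2% of 942 not called, and in 3 of 17 proteasome subunit promoters. The promoters of Zfand5 (chr1:228192515-228192814, plus strand), with matches starting 206 and 106 bases before the gene start, and of Psmb2 (chr5:144254808-144255107, plus strand), with 1 match starting 68 bases before it, follow 5′ to 3′ with the matched letters in capitals. A match is a description of these letters only.
Zfand5: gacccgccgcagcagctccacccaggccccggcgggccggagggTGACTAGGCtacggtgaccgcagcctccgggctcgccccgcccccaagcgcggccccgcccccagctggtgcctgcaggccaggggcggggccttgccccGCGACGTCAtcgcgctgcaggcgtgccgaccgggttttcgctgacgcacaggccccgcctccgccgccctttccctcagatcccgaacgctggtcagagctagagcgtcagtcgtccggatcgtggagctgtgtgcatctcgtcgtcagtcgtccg
Psmb2: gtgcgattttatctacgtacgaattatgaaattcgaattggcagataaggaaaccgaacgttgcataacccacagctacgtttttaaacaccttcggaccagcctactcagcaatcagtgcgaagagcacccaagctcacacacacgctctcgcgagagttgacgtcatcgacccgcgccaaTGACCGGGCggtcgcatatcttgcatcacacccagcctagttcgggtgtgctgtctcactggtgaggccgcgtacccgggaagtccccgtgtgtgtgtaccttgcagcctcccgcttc

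**Figure D2:**
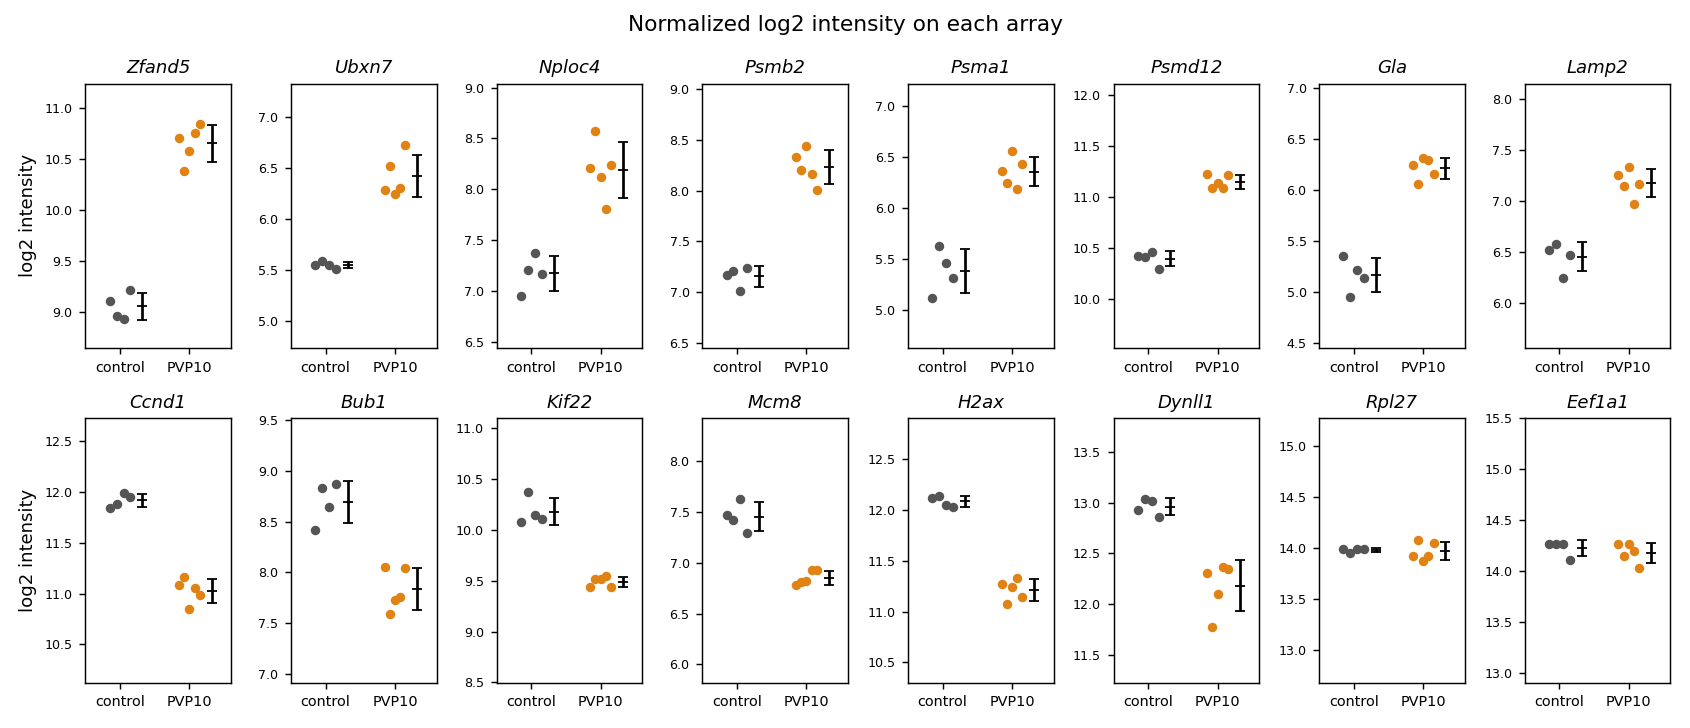
Normalized log2 intensity of 16 genes on each control array (grey, 4) and PVP10 array (orange, 5), with the mean and SD of each group as a bar beside the points; every panel spans 2.6 log2 units. The 8 genes of the upper row lie higher on all PVP10 arrays, the first 6 of the lower row lie lower, and Rpl27 and Eef1a1 overlap.

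Other protein quality control genes rose in part. Of 21 cytosolic chaperone and cochaperone genes 8 rose (38.1%, against 20.1% over all entries) and 2 fell (9.52%, against 21.7%), with a median of 0.16. Dnajc5, which encodes a J-domain cochaperone of vesicles, read 7.42, 7.15, 7.26 and 7.15 on the control arrays and 8.16, 8.26, 8.26, 8.07 and 8.19 on the PVP10 arrays, a log2 fold change of 0.95 (SE 0.0879, adjusted p = 6.73e-10). Dnaja1 was 0.69 (SE 0.083) higher and the small heat shock gene Hspb1 1.48 (SE 0.124) higher. Bag6, the gene of a chaperone for membrane proteins that go astray, was at -0.76 (SE 0.12). Of 18 genes for folding and stress in the endoplasmic reticulum 5 rose and 5 fell, or 8 and 3 with equal array medians. The share of 27.8% each way stood against 20.1% higher and 21.7% lower over all entries. Herpud1 rose by 0.80 (SE 0.0862) and the lectin chaperone gene Canx by 0.72 (SE 0.112), while the related Herpud2 was at -0.70 (SE 0.113). Of 6 genes of the integrated stress response and amino acid supply 0 fell (against 21.7%) and 4 rose (66.7%, against 20.1% over all entries). They were Ddit4 (1.63, SE 0.101), an inhibitor of mTORC1, Ppp1r15b (0.86, SE 0.131), which directs a phosphatase to eIF2, the amino acid carrier gene Slc1a5 (0.39, SE 0.0831) and the transcription factor gene Cebpb (0.24, SE 0.0887). The call for Cebpb was lost without control replicate 1 (0.17) and without PVP10 replicate 1 (0.21), 3 (0.24) or 4 (0.22).

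Genes of lysosomes rose without exception among the few measured. All 5 kept genes for lysosomal enzymes and membrane proteins, of 50 on the array, were called higher, against 20.1% over all entries. Their median was 0.50. Gla, which encodes alpha-galactosidase A, read 5.35, 4.95, 5.21 and 5.14 on the control arrays and 6.25, 6.06, 6.32, 6.29 and 6.16 on the PVP10 arrays, a log2 fold change of 1.07 (SE 0.122, adjusted p = 3.09e-08). Lamp2, a major lysosomal membrane protein gene, read 6.52, 6.58, 6.25 and 6.47 on the control arrays and 7.26, 7.15, 7.34, 6.97 and 7.17 on the PVP10 arrays, a log2 fold change of 0.75 (SE 0.0989, adjusted p = 3.81e-07). The groups were apart in both. The cathepsin genes Ctsl and Ctsb rose by 0.50 (SE 0.0896) and 0.49 (SE 0.112). Arsa (0.38), the gene of arylsulfatase A, was the remaining member and was named after its value was seen. Of 4 vacuolar proton pump genes 2 rose (50%, against 20.1% over all entries) and 0 fell (against 21.7%). Those that rose were Atp6v1b2, by 1.39 (SE 0.139), and Atp6v0c, by 0.43 (SE 0.0858). In autophagy 2 of 7 genes rose (28.6%, against 20.1% over all entries) and 1 fell (14.3%, against 21.7%). Besides Sqstm1, Atg14, which encodes a subunit of the autophagy lipid kinase, was detected on no control array and all PVP10 arrays and was at least 1.84-fold higher. The initiating kinase gene Ulk1 was at -0.28 (SE 0.0952, adjusted p = 0.0191), a call lost with equal array medians and without control replicate 3 or PVP10 replicate 1.

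Membrane traffic genes moved in both directions, as did all entries (20.1% higher, 21.7% lower). Of 41 clathrin, adaptor and sorting genes 11 rose (26.8%) and 12 fell (29.3%), or 12 and 7 with equal array medians, and the median was 0.02. Vps18, whose product tethers late endosomes and lysosomes, read 7.09, 7.35, 7.16 and 6.95 on the control arrays and 8.25, 8.21, 8.42, 7.96 and 8.15 on the PVP10 arrays, a log2 fold change of 1.05 (SE 0.104, adjusted p = 2.2e-09). Gga1, an adaptor gene of the trans-Golgi network, read 8.26, 8.47, 8.41 and 8.41 on the control arrays and 7.24, 6.99, 7.23, 7.40 and 7.29 on the PVP10 arrays, a log2 fold change of -1.14 (SE 0.106, adjusted p = 7.51e-10). These oppose each other with no overlap of the groups in either. Vps4a, an ATPase gene of the ESCRT pathway, was at -0.64 (SE 0.109) and Snx19 at -0.62 (SE 0.102). Of 21 Rab GTPase and regulator genes 7 rose (33.3%) and 3 fell (14.3%). Rab10 was 1.51 (SE 0.0835) higher and Rab9a 0.83 (SE 0.0966) higher, and Tbc1d2b, a Rab regulator gene, was at -1.10 (SE 0.108). Rab5a, which marks early endosomes, read 6.88, 7.01, 6.70 and 6.93 on the control arrays and 7.82, 7.53, 7.85, 7.72 and 8.03 on the PVP10 arrays, a log2 fold change of 0.93 (SE 0.0896, adjusted p = 1.46e-09). Of 26 genes for vesicle coats and membrane fusion 5 rose (19.2%) and 3 fell (11.5%), or 5 and 1 with equal array medians. The endosomal fusion gene Stx12 read 7.63, 7.60, 7.69 and 7.70 on the control arrays and 8.45, 8.73, 8.71, 8.59 and 8.78 on the PVP10 arrays, a log2 fold change of 0.99 (SE 0.0982, adjusted p = 2.41e-09). Arfgap1 and Copg1 rose by 0.96 (SE 0.109) and 0.42 (SE 0.103), and Arf5 was at -0.54 (SE 0.0881). Both measured genes of caveolae, which are flask-shaped pits of the endothelial surface, fell. These were Cav1 (-1.01) and Cavin1 (-0.32), named after their values were seen.

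Genes of DNA replication and mitosis fell more often than they rose. Of 14 DNA replication genes 8 fell (57.1%, against 21.7% over all entries) and 0 rose, with a median log2 fold change of -0.34. Mcm8, a helicase subunit gene, read 7.47, 7.42, 7.63 and 7.29 on the control arrays and 6.78, 6.81, 6.82, 6.92 and 6.93 on the PVP10 arrays, a log2 fold change of -0.59 (SE 0.0961, adjusted p = 9.39e-06). Gins3, a gene of the replication helicase complex, read 8.37, 8.15, 8.40 and 8.48 on the control arrays and 7.63, 7.70, 7.79, 7.92 and 7.66 on the PVP10 arrays, a log2 fold change of -0.61 (SE 0.127, adjusted p = 0.000278). All PVP10 arrays lay below all control arrays in both. Pole2, of DNA polymerase epsilon, was at -0.49 (SE 0.11) and Orc1, of the origin recognition complex, at -0.38 (SE 0.0982). Mcm3, named after its value was seen, was at 0.05 and was not called.

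Of 20 genes for mitosis and chromosome segregation 11 fell (55.0%, against 21.7% over all entries) and 3 were called higher (15%, against 20.1%). The list median was -0.36, or -0.22 with genes undetected in a group held at their bounds. Bub1, a spindle checkpoint kinase gene, read 8.41, 8.83, 8.64 and 8.87 on the control arrays and 8.05, 7.59, 7.73, 7.76 and 8.04 on the PVP10 arrays, a log2 fold change of -0.83 (SE 0.119, adjusted p = 1.63e-06). Kif22, a chromosome motor gene, read 10.08, 10.37, 10.15 and 10.11 on the control arrays and 9.44, 9.52, 9.52, 9.54 and 9.44 on the PVP10 arrays, a log2 fold change of -0.68 (SE 0.0906, adjusted p = 5.03e-07). Neither gene's groups overlapped. Kif2c, which encodes a microtubule-depolymerizing motor, was detected on all control arrays and no PVP10 array and was at least 1.65-fold lower. The members called higher, named after their values were seen, were Stag1 (0.35), Anapc4 (0.39) and Anapc7, which was detected on 4 PVP10 and 0 control arrays and was at least 1.11-fold higher. Of 10 tubulin and microtubule genes 5 fell (50%, against 21.7% over all entries) and 2 rose (20%, near the 20.1%). The median of this list was -0.40. Dynll1, a dynein light chain gene, read 12.93, 13.04, 13.01 and 12.86 on the control arrays and 12.31, 11.77, 12.10, 12.37 and 12.35 on the PVP10 arrays, a log2 fold change of -0.77 (SE 0.105, adjusted p = 6.45e-07), and Tubb6 was at -0.50 (SE 0.102). Map1b, detected on 4 PVP10 arrays, was at -0.82 (SE 0.173) with overlapping groups.

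The letters TTTGAA on either strand, a core of the cell cycle homology region, were found in 18.1% of all promoters, 11.3% of those of tested genes and 9 of 17 matched promoters of the mitosis list (52.9%). They were found in 13.5% of genes called higher, 8.51% of genes called lower and 11.6% of genes not called. The promoters of Fam83d (chr3:167841542-167841841, plus strand), with the match starting 42 bases before the gene start, and Kif22 (chr1:191080829-191081128, minus strand), 16 bases before it, are given 5′ to 3′ with the match in capitals, since both genes fell and share these letters near the start.
Fam83d: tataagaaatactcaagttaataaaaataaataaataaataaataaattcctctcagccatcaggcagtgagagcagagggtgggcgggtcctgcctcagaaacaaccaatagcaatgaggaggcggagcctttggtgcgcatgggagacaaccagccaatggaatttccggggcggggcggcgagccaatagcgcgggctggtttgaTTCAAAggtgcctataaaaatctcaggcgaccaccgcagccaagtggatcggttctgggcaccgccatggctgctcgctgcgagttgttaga
Kif22: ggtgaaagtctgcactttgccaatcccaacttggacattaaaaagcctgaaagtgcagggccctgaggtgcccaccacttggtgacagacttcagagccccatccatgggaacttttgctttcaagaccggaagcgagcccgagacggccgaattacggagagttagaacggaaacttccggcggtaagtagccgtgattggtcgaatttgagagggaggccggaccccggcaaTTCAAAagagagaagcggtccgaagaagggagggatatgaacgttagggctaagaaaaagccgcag
A further 4 motifs were searched on both strands. The metal response element core TGCNCNC was in 57.3% of genes called higher, 64.7% of genes called lower and 59.3% of genes not called, against 60.2% of tested genes and 50.1% of all promoters. In the same order, the E-box CACGTG was in 11.5%, 8.25% and 11.5%, against 10.7% of tested genes and 6.65% of all promoters. The heat shock element GAANNTTC was in 6.59%, 3.61% and 5.52%, against 5.3% and 8.34%. The letters TGATGNAA of the C/EBP-ATF response element were in 3.44%, 1.03% and 2.23%, against 2.2% and 3.82%.

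Among 16 genes for cyclins, their kinases and regulators of G1, 7 fell (43.8%, against 21.7% over all entries) and 5 rose (31.2%, against 20.1%). With equal array medians 5 fell and 6 rose. Ccnd1, the cyclin D1 gene, read 11.84, 11.88, 11.99 and 11.95 on the control arrays and 11.08, 11.16, 10.85, 11.06 and 10.99 on the PVP10 arrays, a log2 fold change of -0.89 (SE 0.105, adjusted p = 5.53e-08). Myc, a growth-promoting transcription factor gene, read 10.97, 11.38, 11.19 and 11.37 on the control arrays and 10.26, 10.35, 10.47, 10.29 and 10.74 on the PVP10 arrays, a log2 fold change of -0.80 (SE 0.103, adjusted p = 2.53e-07). Every PVP10 array lay below every control array in both. Btg1, whose product restrains proliferation, rose by 0.72 (SE 0.086), and Mxd3, of the MYC network, was at -1.50 (SE 0.0874), detected on 2 PVP10 arrays. Of the 3 histone genes measured, H2ax and H2az1 fell. H2ax, the variant phosphorylated at DNA breaks, read 12.12, 12.13, 12.05 and 12.03 on the control arrays and 11.27, 11.07, 11.24, 11.33 and 11.14 on the PVP10 arrays, a log2 fold change of -0.85 (SE 0.0785, adjusted p = 6.97e-10). H2az1 was at -0.41 (SE 0.086), a call lost with equal array medians. Of 11 DNA repair and damage signalling genes 3 fell (27.3%) and 0 rose, H2ax again, Parp3 (-0.55, SE 0.113) and the mismatch repair gene Pms2 (-0.31, SE 0.0806). Of 9 apoptosis regulators 3 fell (33.3%) and 0 rose, Bag6, the caspase gene Casp6 (-0.68, SE 0.146) and Cflar (-0.57, SE 0.0824), which encodes an inhibitor of caspase 8.

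**Figure D3:**
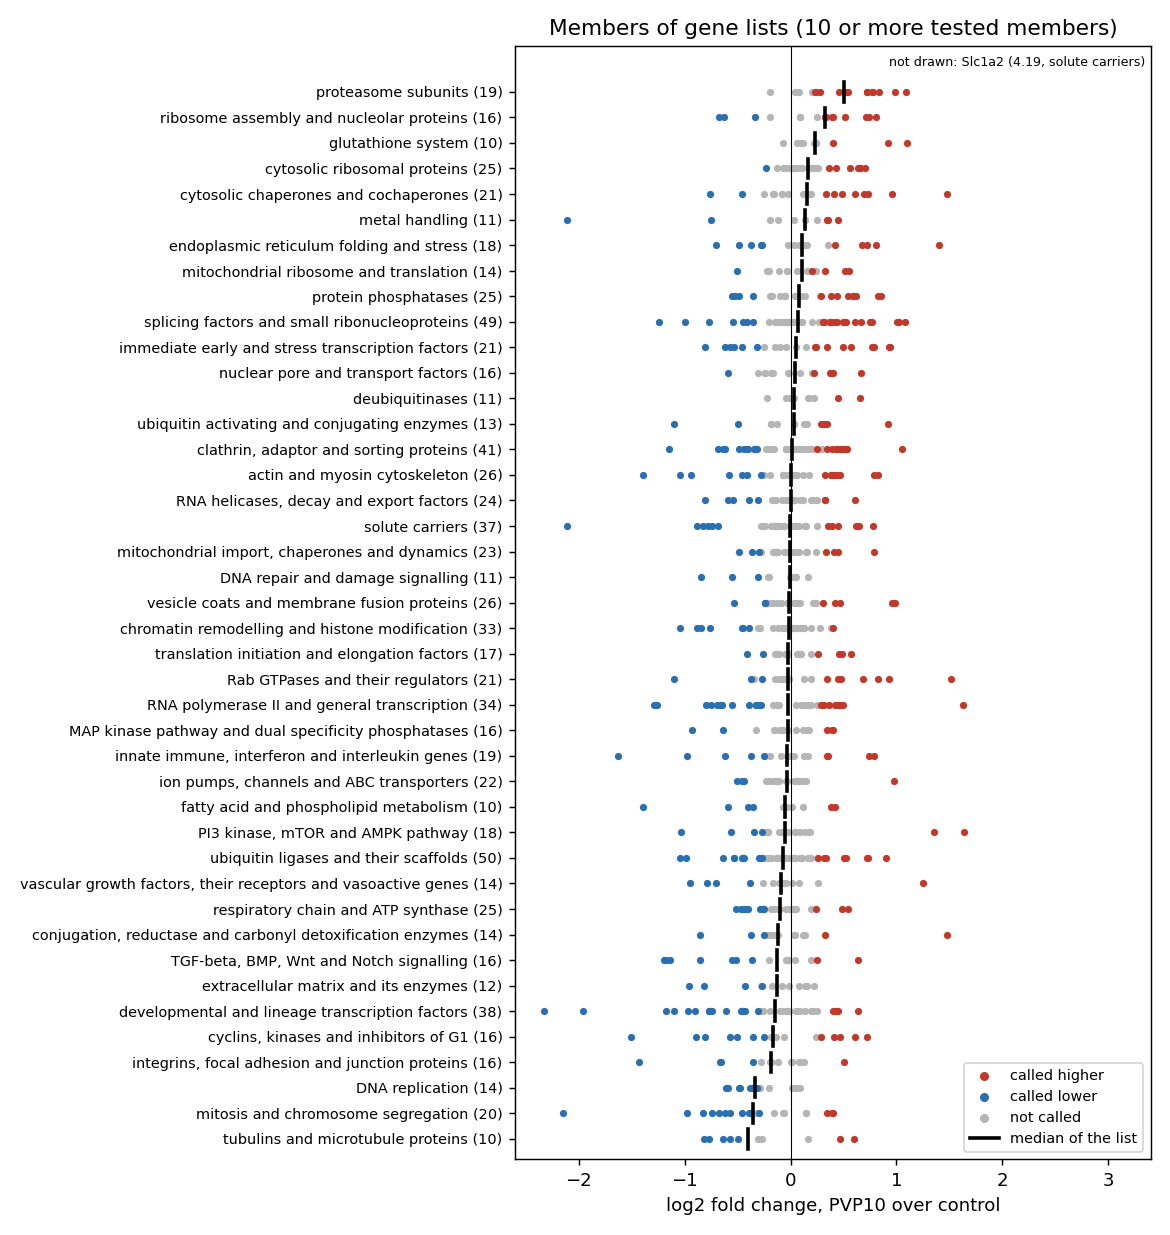
Each point is a tested member of a gene list, placed by its log2 fold change of PVP10 over control and coloured by its call, with the number of members in parentheses and black bars at list medians. Proteasome subunits have the highest median (0.50) and tubulin and microtubule genes the lowest (-0.40) among the lists drawn, and the one point beyond the axis, Slc1a2 at 4.19, is named in the plot.

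Transcription factors of development and lineage fell more often than they rose, with a median of -0.14. Of 38 genes 15 fell (39.5%, against 21.7% over all entries) and 5 rose (13.2%, against 20.1%). Srf, which drives cytoskeletal genes, read 9.20, 9.45, 9.47 and 9.39 on the control arrays and 8.07, 8.22, 8.32, 8.43 and 8.31 on the PVP10 arrays, a log2 fold change of -1.11 (SE 0.0994, adjusted p = 4.52e-10). Prrx1, a homeobox gene of mesenchyme, was at -1.96 (SE 0.11) and Tcf7l1, a Wnt pathway repressor gene, at -1.18 (SE 0.111). Stress-responsive transcription factor genes rose in 9 of 21 (42.9%, against 20.1% over all entries) and fell in 6 (28.6%, against 21.7%). The list ran from -0.80 to 0.94 (Crem, SE 0.0978), and Junb was at 0.77 (SE 0.11). Of 34 genes of RNA polymerase II and general transcription 10 rose (29.4%) and 13 fell (38.2%), or 10 and 9 with equal array medians. Eaf1, which encodes a partner of an elongation factor, read 6.38, 6.36, 6.33 and 6.37 on the control arrays and 8.05, 7.97, 8.03, 7.91 and 7.98 on the PVP10 arrays, a log2 fold change of 1.63 (SE 0.0884, adjusted p = 1.33e-14). Taf6 (-1.26, SE 0.11), of the initiation factor TFIID, and the Mediator gene Med25 (-0.70, SE 0.085) fell. Of 33 chromatin genes 7 fell (21.2%, near the 21.7% over all entries) and 1 rose (3.03%, against 20.1%). Sin3a, the scaffold gene of a histone deacetylase complex, read 9.61, 9.87, 9.65 and 9.71 on the control arrays and 8.87, 8.79, 8.74, 8.93 and 8.81 on the PVP10 arrays, a log2 fold change of -0.88 (SE 0.0841, adjusted p = 1.16e-09). Chd1 and Smarcd3, of chromatin remodelling complexes, were at -0.85 (SE 0.133) and -0.76 (SE 0.0984).

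Splicing and ribosome assembly genes rose more often than they fell. Of 49 splicing genes 17 rose (34.7%) and 7 fell (14.3%), against 20.1% higher and 21.7% lower over all entries, with a median of 0.07. Prpf38a, a spliceosome gene, rose by 1.08 (SE 0.107) and Lsm12 by 1.02 (SE 0.104), whereas Celf4, a regulator of splicing, was at -1.24 (SE 0.0875). Lsm10, of the particle that processes histone mRNA, read 10.13, 10.08, 10.04 and 10.41 on the control arrays and 8.98, 9.35, 9.15, 9.32 and 9.04 on the PVP10 arrays, a log2 fold change of -0.99 (SE 0.0921, adjusted p = 7.35e-10). Its PVP10 arrays all lay below the control arrays. Of 16 genes for ribosome assembly and the nucleolus 9 rose and 3 fell, with a median of 0.33 and shares of 56.2% and 18.8%. Nmd3, the export adaptor gene of the large subunit, rose by 0.74 (SE 0.112), and Wdr12, detected on no control array, was at least 1.42-fold higher. Nop56 (-0.63, SE 0.117) and the exosome gene Exosc4 (-0.68, SE 0.0955) fell. Of 25 cytosolic ribosomal protein genes 8 rose and 1 fell (13 and 0 with equal array medians), with a median of 0.16, and Rpl13a rose by 0.70 (SE 0.102). Ribosomal protein genes have many near-identical copies in the genome, so these probes may read more than 1 of them. Of 17 translation factor genes 4 rose (23.5%) and 2 fell (11.8%), or 8 and 0 with equal array medians, with Eif3h at 0.57 (SE 0.11) and Eif2s2 at 0.48 (SE 0.0906).
Nuclear transport genes rose in 6 of 16 (37.5%, against 20.1% over all entries) and fell in 1 (6.25%, against 21.7%). With equal array medians 8 rose and 0 fell. Kpna4 rose by 0.66 (SE 0.0994), and Xpo7 was at -0.59 (SE 0.113), a call lost with equal array medians. Of 24 genes for helicases and RNA decay 3 rose (12.5%) and 5 fell (20.8%), or 5 and 4 with equal array medians. Among them were Ddx3x (0.61, SE 0.107), Pan2 (-0.59, SE 0.1) and the deadenylase scaffold gene Cnot1 (-0.54, SE 0.0939).

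Redox and metal genes moved in both directions, as did all entries (20.1% higher, 21.7% lower). Of 10 glutathione genes 3 rose and 0 fell, with a median of 0.23. With equal array medians 6 rose, and without background correction the median was 0.11. Gstp1, which encodes a glutathione transferase, read 11.50, 11.03, 11.24 and 11.40 on the control arrays and 12.50, 12.44, 12.40, 12.31 and 12.27 on the PVP10 arrays, a log2 fold change of 1.10 (SE 0.0912, adjusted p = 9.78e-11). Gsto1 rose by 0.92 (SE 0.115) and Oplah by 0.40 (SE 0.0924). All 4 measured NADPH supply genes were called, Me1 (1.09, SE 0.0915) and Taldo1 (0.21, SE 0.0845) higher and Idh2 (-0.64, SE 0.132) and Pgls (-0.49, SE 0.0924) lower. The Taldo1 call was lost without any 1 of the control arrays and without PVP10 replicate 1, 2, 3 or 5, where its value lay between 0.18 and 0.22. The thioredoxin gene Txn1 rose by 0.29 (SE 0.0881) while the peroxide-reducing Prdx2 was at -0.59 (SE 0.102). Among 14 conjugation and carbonyl detoxification genes, Ugt1a6 (1.48, SE 0.0859) and Akr1a1 (0.33, SE 0.0833) rose (14.3%). In the same list 3 fell (21.4%), Cbr3 by the most (-0.85, SE 0.0981). Of 11 metal handling genes 3 rose (27.3%) and 2 fell (18.2%). The zinc importer gene Slc39a10 read 7.07, 7.13, 7.14 and 7.56 on the control arrays and 5.09, 4.99, 4.98, 5.26 and 5.21 on the PVP10 arrays, a log2 fold change of -2.11 (SE 0.106, adjusted p = 2.07e-15), and was detected on 4 PVP10 arrays. Its values did not overlap between groups. The copper genes Slc31a2 (0.45, SE 0.106) and Ccs (0.35, SE 0.0895) rose, and the metalloreductase gene Steap1 (-0.75, SE 0.0899) fell.

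Genes of energy supply and metabolism moved in both directions, as did all entries (20.1% higher, 21.7% lower). Of 7 citric acid cycle genes 4 rose (57.1%) and 2 fell (28.6%), within -0.64 (Idh2) and 0.34 (Idh3g). Of 25 respiratory chain and ATP synthase genes 9 fell and 3 rose, with a median of -0.10, but with equal array medians 2 fell and 5 rose, with a median of 0.10. The lowest were Atp5f1d (-0.52, SE 0.117) and Atp5mc1 (-0.47, SE 0.0943), and Cox5a was highest (0.54, SE 0.113). The Atp5mc1 call was lost with equal array medians. Gfpt1, the entry enzyme gene of hexosamine synthesis, read 5.70, 5.80, 5.55 and 5.80 on the control arrays and 6.52, 6.65, 6.53, 6.60 and 6.70 on the PVP10 arrays, a log2 fold change of 0.89 (SE 0.0851, adjusted p = 1.22e-09). Prkaa1, a catalytic subunit gene of AMPK, rose by 1.36 (SE 0.0869), and Pdpk1, whose product activates AKT, was at -1.04 (SE 0.158). Of 25 protein phosphatase genes 9 rose (36%) and 4 fell (16%), with Ppp2ca, a catalytic subunit gene of PP2A, at 0.83 (SE 0.127). Both measured genes of sterol synthesis rose, Sqle (0.82), an enzyme of cholesterol formation, and the regulator Srebf2 (0.37), named after their values were seen. The fat cell and lipid regulator gene Pparg was at -1.39 (SE 0.0936).

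Genes of the cell surface and its matrix were called lower at shares of 33.3% for matrix and 25% for adhesion, against 21.7% over all entries. Of 12 matrix genes 4 fell and 0 rose, and of 16 integrin, adhesion and junction genes 4 fell and 1 rose (6.25%, against 20.1%). Dag1, the dystroglycan gene that links matrix to cytoskeleton, read 11.93, 12.01, 12.21 and 12.01 on the control arrays and 10.98, 10.88, 11.10, 11.14 and 11.13 on the PVP10 arrays, a log2 fold change of -0.996 (SE 0.095, adjusted p = 1.16e-09). Sdc1, a heparan sulphate carrier gene, was at -0.96 (SE 0.0967), Col5a1 at -0.82 (SE 0.11) and the adaptor gene Nck2 at -1.43 (SE 0.102). Tjp1 was at -0.36 (SE 0.095, adjusted p = 0.0029) with overlapping groups. Of 26 actin and myosin genes 8 rose (30.8%) and 7 fell (26.9%), with Coro1b at 0.79 (SE 0.106) and the actin-severing Gsn at -0.94 (SE 0.0975). Gsn read 7.58, 7.68, 7.57 and 7.61 on the control arrays and 6.65, 6.66, 6.62, 6.72 and 6.67 on the PVP10 arrays. Its groups lay far apart beside their spread. Of 14 vascular growth and vasoactive genes 1 rose (7.14%) and 4 fell (28.6%). Vegfa, the main endothelial growth factor gene, read 6.16, 6.33, 6.56 and 6.55 on the control arrays and 7.77, 7.54, 7.62, 7.61 and 7.80 on the PVP10 arrays, a log2 fold change of 1.25 (SE 0.106, adjusted p = 1.46e-10). Pdgfa was at -0.70 (SE 0.115) and Adm at -0.95 (SE 0.163, detected on 4 PVP10 arrays), and Angpt2, which opposes vessel stability, was detected on no PVP10 array and was at least 1.28-fold lower.

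Receptor signalling genes of the TGF-beta, BMP, Wnt and Notch pathways fell in 7 of 16 (43.8%, against 21.7% over all entries). They rose in 2 (12.5%, against 20.1%). Psenen, of the gamma-secretase that cuts NOTCH, read 8.30, 7.96, 8.02 and 8.01 on the control arrays and 6.77, 7.14, 6.86, 7.05 and 6.61 on the PVP10 arrays, a log2 fold change of -1.18 (SE 0.104, adjusted p = 3.23e-10). Bmpr2 was at -1.14 (SE 0.19) and Acvr2b at -1.19 (SE 0.11, detected on 4 PVP10 arrays). Notch1 was detected on all control arrays and no PVP10 array and was at least 1.63-fold lower. Innate immune and interleukin genes rose in 4 of 19 (21.1%) and fell in 5 (26.3%), near the shares over all entries. C1r, a complement protease gene, read 10.26, 10.43, 10.40 and 10.26 on the control arrays and 9.39, 9.37, 9.35, 9.39 and 9.32 on the PVP10 arrays, a log2 fold change of -0.98 (SE 0.0965, adjusted p = 2.13e-09). The inhibitor genes Socs4 and Il18bp were higher, by 0.79 (SE 0.101) and by at least 1.44-fold. Of 37 solute carrier genes 7 rose (18.9%) and 6 fell (16.2%), with the phosphate carrier gene Slc20a1 at 0.78 (SE 0.0883). Of 22 ion pump, channel and ABC transporter genes 1 rose (4.55%) and 3 fell (13.6%), with the calcium pump gene Atp2b1 at -0.50 (SE 0.11). Among 16 genes of the MAP kinase pathway 3 rose (18.8%) and 2 fell (12.5%), with Map2k4 at -0.93 (SE 0.107).

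Some genes crossed the limit of detection. Of the tested entries, 14 were detected on all 5 PVP10 and none of the 4 control arrays, and 19 on all 4 control and none of the 5 PVP10 arrays. Crebrf, which encodes a regulator of the unfolded protein response, had the largest bound, at least 2.45-fold higher. It read 4.86, 4.83, 4.84 and 4.65 on the control arrays and 6.25, 6.32, 6.11, 5.65 and 6.76 on the PVP10 arrays. All PVP10 values were above the control values, which were not detected and give only a bound. Clcf1, a cytokine gene, and Wdr20, of a deubiquitinase complex, were at least 1.38-fold and 1.37-fold higher. On the other side stood Prr11 (at least 1.54-fold lower), Rgs17 (1.47-fold), Efcab11 (1.44-fold) and Wdr24 (1.42-fold), the last a gene of the amino acid branch of mTORC1 control. A further 40 entries were detected on none of the 9 arrays and entered the test through other groups, and 5 of them were called.

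The remaining genes with the smallest p-values among changes of at most 1 on the log2 scale were Ntmt1, the gene of an enzyme that methylates protein ends, and Rcbtb2. Ntmt1 read 9.35, 9.35, 9.52 and 9.46 on the control arrays and 10.27, 10.32, 10.32, 10.26 and 10.11 on the PVP10 arrays, a log2 fold change of 0.82 (SE 0.0826, adjusted p = 2.77e-09). Rcbtb2 read 10.45, 10.53, 10.51 and 10.52 on the control arrays and 9.64, 9.34, 9.51, 9.68 and 9.63 on the PVP10 arrays, a log2 fold change of -0.93 (SE 0.0847, adjusted p = 6.05e-10). The arrays of each group lay within 0.35 of each other in both genes and the groups were apart.

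The response was also read within each BeadChip, since chip 1 held 1 control and 2 PVP10 arrays and chip 2 held 3 of each, with no array in common. On chip 2 alone 883 entries were called (32.1%) and on chip 1 alone 514 (18.7%), with the spread of the lone control array taken from the other groups. On both chips 477 were called, all in the same direction. Of the 883 called on chip 2, 873 had the same sign on chip 1 (98.9%), and of the 472 that changed by under 1.5-fold on chip 2, 463 did. The median absolute log2 fold change of the chip 2 calls was 0.56 on chip 2 and 0.60 on chip 1. Across all entries the chip values correlated at 0.895, which describes genes of 1 pair of chips and not independent replicates. A difference between chips was called for 0 entries by limma, with 67 under an unadjusted p of 0.05. The median of the proteasome subunits was 0.60 on chip 1 and 0.44 on chip 2, and that of the mitosis genes -0.28 and -0.42.

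**Figure D4:**
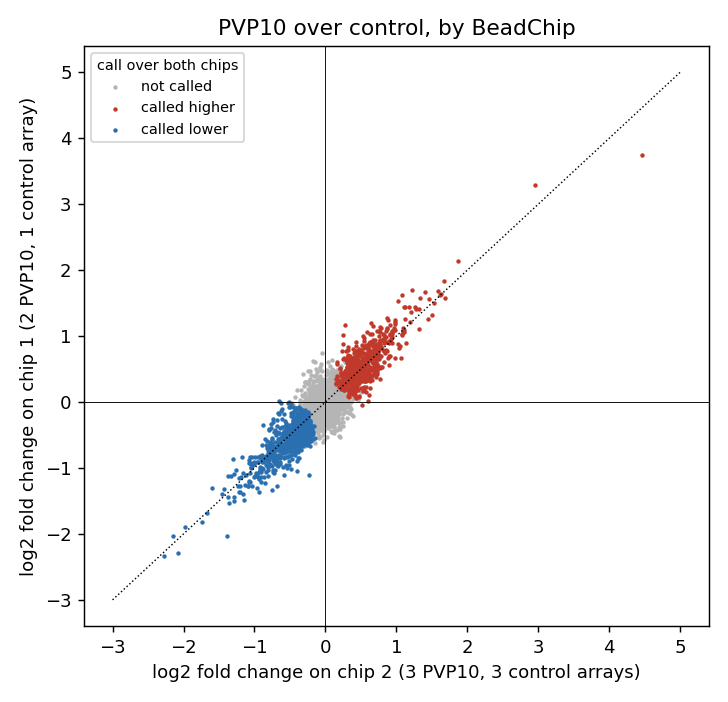
Log2 fold change of PVP10 over control on chip 2 (x axis) and on chip 1 (y axis) for each of the 2748 tested entries, coloured by the call over both chips, with the line of equality dotted. Points lie along the line, and 477 entries were called on each chip alone in the same direction.

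At the same dose and time, PVP10 was also set against PVP-coated particles of 75 nm and against citrate-coated particles of 10 nm. PVP10 differed from the 75 nm PVP particles in 768 entries (27.9%), 355 higher and 413 lower. It differed from the 10 nm citrate particles in 1148 entries (41.8%), 557 higher and 591 lower. These comparisons share the PVP10 arrays with the one against control, so their lists are not independent. Zfand5 was 0.52 (SE 0.119, adjusted p = 0.00131) higher than with the 75 nm PVP particles and 1.54 (SE 0.115, adjusted p = 8.93e-12) higher than with the 10 nm citrate particles. Bub1 was at -0.49 (SE 0.116, adjusted p = 0.00185) and -0.84 (SE 0.112, adjusted p = 3.93e-07) in the same comparisons. Among proteasome subunits 7 of 19 were higher than with 75 nm PVP particles and 14 of 19 higher than with 10 nm citrate particles. Over all entries the shares called higher in these comparisons were 12.9% and 20.3%. Gstp1, raised against control, was 0.32 (SE 0.0889, adjusted p = 0.00637) above the 75 nm PVP particles.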

How the data were processed

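RNA of RBEC4 cells was labelled as biotin cRNA and hybridised to rat Illumina BeadChips, and the raw signals were exported with GenomeStudio 2011.1, per the submitters' processing notes and the labels' protocols. The deposited table holds, per the file headers, non-normalized bead intensity and a detection p-value for each of 22523 probes on 24 arrays. A second deposited table of normalized intensity served as an alternative. Background was corrected with normexp (limma 3.58.1, R 4.3.3, negative controls inferred from the detection p-values, offset 16), followed by quantile normalization and log2. Probes with a detection p-value under 0.01 on at least 4 arrays were kept (2774, 12.3%). All 24 arrays entered 1 linear model with 5 groups and 2 BeadChips, and p-values were adjusted over all kept probes by Benjamini-Hochberg, with a threshold of 0.05. Values within a chip came from a model of group by chip. Where a gene had several kept probes (22 genes), the brightest stood for it. For a probe that no array of a group detected, the level there is a bound, the higher of the lowest detected signal and its own. "At least" folds compare the other group with that bound. Bead arrays give no read depth, and 4 against 5 arrays limit the precision (median SE 0.111).

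The members and gene lists were chosen with earlier results of these data known. Genes were named by rule: the 2 largest changes each way, the 6 each way with the smallest p at a log2 change of at most 1, up to 4 called members of each list, up to 6 each way detected in 1 group only, and the 4 with the narrowest interval within 1.2-fold. The fit was tested on simulated data. Alternatives changed the background correction, scaling, filter, arrays, chip term, replicate block, weights and variance trend, and left out each array. The result of 1 gene list is not reported here.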

Additional observations from a re-analysis of the deposited data

Results flagged for a closer look

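In 28 of 430 groups of values, those of the 212 named genes and of 3 array summaries (median signal, detected probes and correlation within the group) in each group, 1 array lay far from the others of its group by Dixon's ratio of gap to range, where chance gives about 1 in 20. Control array 1 stood high for Shc1 (ratio 0.986), Ube2j2 (0.968), Txndc9 (0.883) and Psenen (0.843). It stood low for Cebpb (0.969), Orc1 (0.905), Arf5 (0.872), Pdgfa (0.86) and Tbc1d2b (0.84). Control array 4 stood high for Hspb1 (0.965), Slc39a10 (0.867), Steap1 (0.86) and Etfdh (0.8293). It stood low for Eef1a1 (1.0), Mdh2 (0.952), Efcab11 (0.926), Rpl24 (0.875) and Crebrf (0.861). Control array 2 stood low for Rpl27 (1.0). PVP10 array 2 stood high for Ufd1 (0.737) and low for Pole2 (0.787) and Timm23 (0.775). PVP10 array 4 stood high for Pabpn1 (0.773) and Fbxl6 (0.731) and low for Casp6 (0.755). PVP10 array 5 stood high for Herc4 (0.834) and Xpo7 (0.746) and low for Phlda1 (0.728). The ratios of 1.0 for Eef1a1 and Rpl27 come from equal values on the other 3 control arrays.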

How the results depend on the processing

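Against control, the 1148 calls became 514 on chip 1 alone (234 higher, 280 lower), where 1 control array stands alone and its spread is taken from the other groups. The 418 calls over 1.5-fold became 187 without background correction, 251 with an offset of 50 and 188 in the authors' normalized table. Background correction stretches folds of dim probes by construction. Leaving out each replicate in turn gave 987 to 1094 calls, 480 to 538 higher, 507 to 574 lower and 406 to 446 over 1.5-fold. It gave 663 to 767 calls against the 75 nm PVP particles (768) and 1062 to 1144 against the 10 nm citrate particles (1148). Arrays with the same replicate number did not deviate together (r between -0.085 and -0.024). These correlations were taken without removing chip and cannot exclude a shared culture or day, which the labels do not state. A replicate block gave 1127 calls, 531 higher and 596 lower, 422 over 1.5-fold, with 763 and 1139 in the other comparisons. Of the 212 named genes 1 called gene reversed, Mdh2, at -0.28 here and 0.033 (adjusted p = 0.827) with equal array medians, and the cause was not tested. Of the genes not called, 3 moved and changed sign there, Rpl27, Rpl23a and Cdc42, the last to a call (0.25). Calls of 53 named genes were lost on chip 1 alone, 12 on chip 2 alone, 10 without a filter, 7 with equal array medians (Mdh2 among them), 3 with the replicate block and 1 to 6 on leaving out an array. Probes near background limit what the dimmest entries can show.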
